A study of Equus caballus with 10 samples.

Results

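Glycosaminoglycans are long sugar chains that cells build on proteoglycan core proteins in the Golgi. Every chondroitin, dermatan or heparan chain starts from a shared short linker of sugars on a serine of the core protein, is then lengthened by a polymerase pair particular to chondroitin or heparan, and is finally epimerized and sulfated. In tendon, small dermatan and chondroitin sulfate proteoglycans bind collagen fibrils, aggrecan carries chondroitin sulfate where tendon is compressed, and heparan sulfate on the cell surface holds growth factors and chemokines. The expression of 43 genes of this machinery was examined in equine tenocytes. They were chosen by gene name and fall into 5 linker enzymes, 15 chondroitin and dermatan enzymes, 19 heparan enzymes and 4 genes that supply sulfate and sugar. The deposited table of 29196 genes listed 42 of them and did not list CHPF2.

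The cells were primary tenocytes of 5 horses, isolated after death from the superficial digital flexor tendon, passaged and then held for 14 days in 3D gels of bovine type I collagen. Each donor (line) gave 1 library to each of 2 groups. The first group, PF-06650833 alone, received this inhibitor of the kinase IRAK-4 daily at 100 nM. The second, IL-1β plus PF-06650833, received the same inhibitor and IL-1β at 17 ng/ml every 3 to 4 days, so that all 10 libraries carried the inhibitor and the comparison gives what IL-1β did in its presence. Below, with and without IL-1β stand for these groups. Untreated cells and cells with IL-1β alone were not analysed here. Each library came from several pooled gels.

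Expression is given on the authors' variance-stabilized log2 scale, on which 0 reads has the value 3.43. Depth, estimated from the spacing of the lowest values, was 26.7 to 36.1 M reads a library without IL-1β and 27.0 to 33.3 M with it. All 6 IL-1 response genes checked (IL6, CXCL8, PTGS2, MMP3, CCL2 and NFKBIA) were higher with IL-1β in 5 of 5 donors. Of the tenocyte markers, COL1A1, COL1A2, SCX, MKX and COMP were expressed and fell at an adjusted p below 0.05 from limma. These were 5 of 8 tested markers (62.5%, against 22.2% of all tested genes), or 3 without the donor block (against 15.5%). THBS4 and FMOD did not pass. DCN did not pass either and went the other way, higher in 5 of 5 donors (log2 fold change 1.01, adjusted p = 0.0529 from limma). Tenomodulin (TNMD) was at 0 reads in all 10 libraries. The summed normalized counts of the 9 tenocyte markers in the table were 873000 to 1440000 and 236000 to 991000 in the groups, and 1 of the 9 had a higher mean with IL-1β. Those of 6 endothelial markers were 9.5 to 53.3 and 8.79 to 42.1 (2 of 6 higher in mean), those of 6 leukocyte markers 212 to 1960 and 343 to 2110 (4 of 6), those of 5 smooth muscle and pericyte markers 27300 to 198000 and 37300 to 81800 (0 of 5), those of 3 adipocyte markers 17.8 to 167 and 362 to 2330 (2 of 3), and those of 3 epithelial markers 538 to 1570 and 45.4 to 442 (0 of 3). Among the defining markers, CD3E, LEP and EPCAM were at 0 reads in every library, and PTPRC, CSF1R and TIE1 had at most 3 estimated reads. CD68 (log2 fold change 1.70) and ADIPOQ (3.11) rose, and CDH1 (-2.22) and DES (-2.98) fell, each with an adjusted p below 0.05 from limma. The part of these marker changes in the results that follow was not tested. Fewer cells of a type and less RNA per cell cannot be told apart in bulk RNA.

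Of the 42 listed genes, 41 could be tested, as they were above 0 reads in at least 5 of the 10 libraries. They were tested within the fit of all 17992 such genes by limma, with the donor as a block and Benjamini-Hochberg adjustment over all genes. At an adjusted p below 0.05, 15 of the 41 genes differed between the groups, 8 up and 7 down with IL-1β. Of all tested genes 22.2% passed this threshold, 10.9% higher and 11.3% lower, against 36.6% of the enzyme genes. With a minimum absolute log2 fold change of 1, the threshold of the study, 4 remained, HS3ST3B1 and B3GALT6 higher and HS3ST1 and CSGALNACT1 lower. This is 9.76% of the 41 genes against 8.26% of all tested genes (4.01% higher and 4.25% lower), a share near the background. The median log2 fold change of the 41 genes was 0.01 and of all tested genes -0.01, and the median absolute log2 fold change was 0.30 against 0.25. Most changes at the first threshold were thus of moderate size, 11 of the 15 being under 1 on the log2 scale. Without the donor block 12 genes passed, 9 higher and 3 lower (15.5% of all tested genes, 7.57% higher and 7.89% lower), and 3 passed with the minimum fold change (6.68%). Centring each library on its median gave 9 higher and 4 lower.

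**Figure D1:**
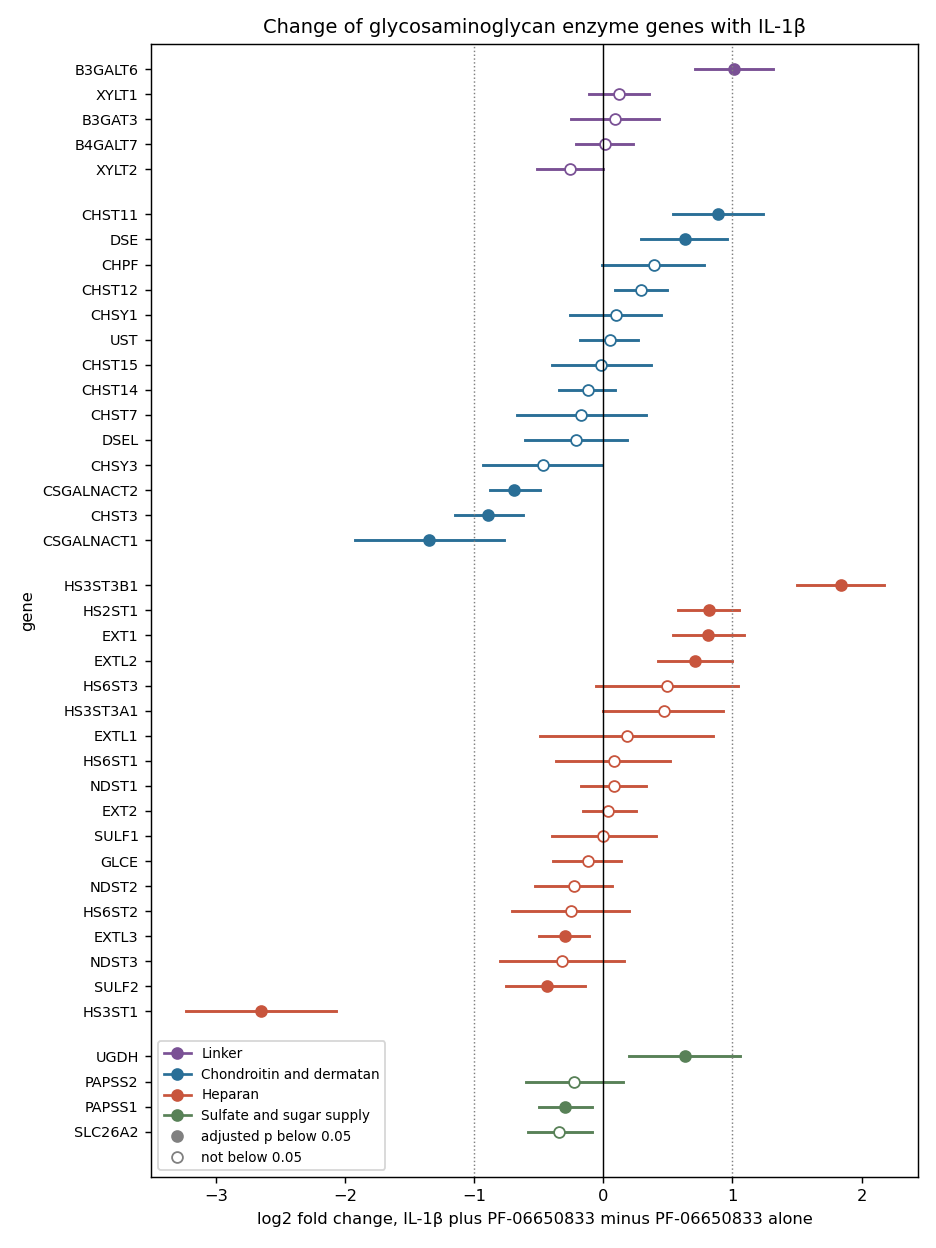
Log2 fold change (horizontal axis, IL-1β plus PF-06650833 minus PF-06650833 alone) of the 41 tested enzyme genes, grouped and coloured by step, with 95% confidence intervals from limma over 5 donors; filled points have an adjusted p below 0.05 and dotted lines mark -1 and 1. HS3ST1 (-2.65) and HS3ST3B1 (1.84) lie farthest from 0, and most other filled points lie between -1 and 1.

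The linker is built by 5 enzymes in order, and 1 of these, B3GALT6, passed the test. This share lies just below the 22.2% of all tested genes, so the count does not set the linker apart. B3GALT6 adds the second galactose. Without IL-1β its log2 expression was 8.28, 8.67, 8.64, 8.11 and 8.06 in donors 1 to 5, and with IL-1β it was 9.48, 9.63, 9.45, 8.82 and 9.44. All 5 libraries with IL-1β lay above all 5 without it, and donor 4 was lowest among those with IL-1β. The fitted log2 fold change was 1.01 (standard error 0.13, 95% confidence interval 0.71 to 1.31, adjusted p = 0.00212 from limma), about 2.02-fold. It stands at the minimum fold change, and without donor 1 (0.96) or donor 5 (0.92) it fell below it, with an adjusted p of 0.0152 and 0.00687 from limma.

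The xylosyltransferases, which place the first sugar on the core protein, did not pass. XYLT1 had a log2 fold change of 0.12 (95% confidence interval -0.11 to 0.35) and XYLT2 of -0.26 (-0.51 to -0.00, adjusted p = 0.132 from limma). For B4GALT7, which adds the first galactose, the log2 fold change was 0.01 (-0.21 to 0.23), and for B3GAT3, which closes the linker with glucuronic acid, it was 0.09 (-0.25 to 0.43). These intervals leave out changes as large as that of B3GALT6.

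In the chondroitin and dermatan branch 14 genes were tested and 5 passed at an adjusted p below 0.05 (35.7%, against 22.2% of all tested genes). CHST11 and DSE were higher and CSGALNACT1, CSGALNACT2 and CHST3 lower. Without the donor block the number was also 5, 3 higher and 2 lower (15.5% of all tested genes passed). The enzymes that start the chain moved down. CSGALNACT1 and CSGALNACT2 add the first N-acetylgalactosamine and thereby commit the linker to chondroitin. CSGALNACT2 was at 12.21, 12.23, 12.43, 12.49 and 12.20 in donors 1 to 5 without IL-1β and at 11.47, 11.43, 11.62, 12.04 and 11.56 with IL-1β. The groups did not overlap, and the loss was the smallest in donor 4. Its log2 fold change was -0.69 (standard error 0.08, adjusted p = 0.0018 from limma), 1.61-fold lower. CSGALNACT1 was at 7.17, 7.08, 7.0, 9.09 and 8.11 without IL-1β and at 6.48, 5.38, 6.34, 7.51 and 6.01 with IL-1β. It was lower with IL-1β in each donor, but the donors differed so much from each other that the groups overlapped, donor 4 with IL-1β lying above donors 1, 2 and 3 without it. The log2 fold change of -1.35 (standard error 0.25) had an adjusted p of 0.00811 from limma with the donor block and 0.0787 without it, and CSGALNACT1 was read less deeply, with 82 to 482 and 20 to 114 estimated reads. On back-transformed counts with a pseudocount of 1 its log2 fold change was -1.62 (adjusted p = 0.00889 from limma).

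The polymerases that lengthen chondroitin did not pass. CHSY1 had a log2 fold change of 0.10 (95% confidence interval -0.26 to 0.45) and CHSY3 of -0.47 (-0.93 to -0.01, adjusted p = 0.131 from limma). CHPF, the partner that chondroitin synthases need for polymerization, had a log2 fold change of 0.39 (-0.01 to 0.78, adjusted p = 0.143 from limma). CHPF was higher in 4 of 5 donors, with a difference of -0.44 in donor 4. Without donor 4 the log2 fold change was 0.59 (adjusted p = 0.00547 from limma). That donor stands out by these same values, so the smaller p is no further evidence. Without donor 1, 2, 3 or 5 the adjusted p was 0.285 to 0.332 from limma.

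Among the sulfotransferases of chondroitin, CHST11 rose and CHST3 fell. CHST11 sulfates position 4 of N-acetylgalactosamine in chondroitin. Its log2 expression was 11.17, 11.62, 11.76, 11.06 and 11.43 in donors 1 to 5 without IL-1β and 12.37, 12.15, 12.21, 11.95 and 12.82 with IL-1β. Every library with IL-1β lay above every library without it, and donors 1 and 5 rose the most. Across donors, the log2 fold change was 0.89 (standard error 0.15, adjusted p = 0.00571 from limma), 1.85-fold higher, and it reached 1.00 when donor 3 was left out. CHST3 sulfates position 6 of the same sugar. It was at 10.44, 10.60, 10.78, 10.66 and 10.78 without IL-1β and at 9.40, 9.48, 10.30, 9.89 and 9.75 with IL-1β. Again the groups did not overlap, with the smallest loss in donor 3. The log2 fold change was -0.89 (standard error 0.11, adjusted p = 0.00205 from limma), 1.85-fold lower.

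The log2 difference between CHST11 and CHST3 within a library therefore moved in favour of CHST11 in 5 of 5 donors, by 2.24 in donor 1, 1.65 in donor 2, 0.93 in donor 3, 1.66 in donor 4 and 2.42 in donor 5. The mean change was 1.78 ± 0.59 (SD, n = 5). Since this pair was chosen after the values of its genes were known, no test is given for the difference. Other enzymes of the same positions changed less. CHST12, a further 4-sulfotransferase, was at 10.31 to 10.57 without IL-1β and at 10.63 to 10.78 with IL-1β, without overlap. Its log2 fold change of 0.29 had an adjusted p of 0.0501 from limma with the donor block, 0.0113 with the block as a random effect and 0.0325 without it. CHST7, a further 6-sulfotransferase, had 2 to 25 estimated reads per library, and its interval of -0.67 to 0.33 is wide. CHST15, which adds a second sulfate to 4-sulfated units, had a log2 fold change of -0.02 (95% confidence interval -0.40 to 0.37).

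Dermatan is made from chondroitin by epimerases that turn glucuronic into iduronic acid. DSE, the main one, was at 13.23, 13.08, 13.34, 13.13 and 13.09 in donors 1 to 5 without IL-1β and at 13.40, 13.79, 13.65, 14.02 and 14.16 with IL-1β. The groups did not overlap, but the rise ranged from 0.17 in donor 1 to 1.07 in donor 5. The fitted log2 fold change was 0.63 (standard error 0.15, adjusted p = 0.0196 from limma), and without donor 2 or donor 5 the adjusted p was 0.0708 and 0.0599 from limma. For its relative DSEL the log2 fold change was -0.21 (95% confidence interval -0.61 to 0.18), lower in donors 1, 2, 3 and 5 and higher in donor 4. Without donor 4 it was -0.41 (adjusted p = 0.0281 from limma), which is no further evidence, as that donor stands out by these same values. Without donor 1, 2, 3 or 5 the adjusted p was 0.567 to 0.703 from limma. CHST14, which sulfates dermatan next to iduronic acid, had a log2 fold change of -0.12 (-0.34 to 0.09). UST, which sulfates the uronic acid itself, had a log2 fold change of 0.05 (-0.18 to 0.27).

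**Figure D2:**
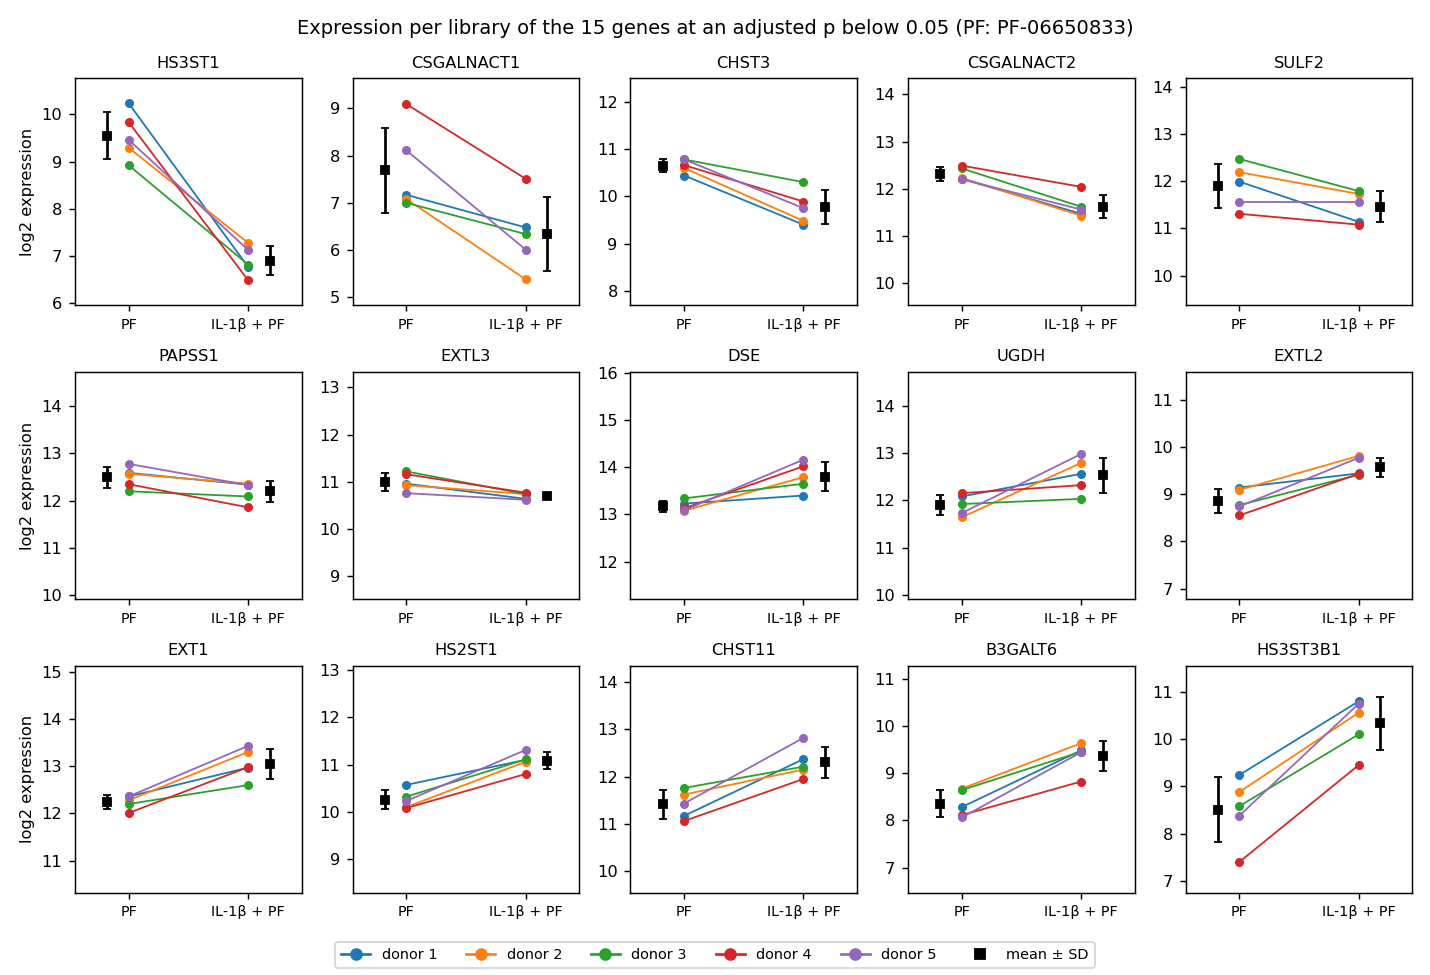
Log2 expression (vertical axis, each panel spanning the same range) of the 15 enzyme genes at an adjusted p below 0.05 in each library, with coloured lines joining the 2 libraries of a donor and black squares giving the mean ± SD (n = 5) of each group. In 10 of the 15 panels the groups do not overlap, as in 11 of the 41 tested enzyme genes and 12.7% of all tested genes. The 15 genes were selected on these same values, so the separation is no further evidence. HS3ST1 falls while HS3ST3B1 rises in every donor.

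Among the heparan enzymes 18 genes were tested and 7 passed (38.9%, against 22.2% of all tested genes). HS3ST3B1, HS2ST1, EXT1 and EXTL2 were higher and HS3ST1, SULF2 and EXTL3 lower. Without the donor block 5 passed, 4 higher and 1 lower (15.5% of all tested genes passed). HS3ST2 was not tested, since it had 0 reads in all libraries without IL-1β and at most 3 estimated reads with IL-1β. The largest changes of the whole enzyme set lay in the 3-O-sulfotransferases, which add the last and rarest sulfate to heparan. HS3ST1, the isoform known for making the heparan sequence that binds antithrombin, was at 10.23, 9.29, 8.92, 9.83 and 9.46 in donors 1 to 5 without IL-1β. With IL-1β it was at 6.77, 7.28, 6.82, 6.49 and 7.13. The groups lay more than 1 log2 unit apart, and the differences were largest in donors 1 and 4 (-3.45 and -3.34). Its log2 fold change was -2.65 (standard error 0.25, 95% confidence interval -3.23 to -2.07, adjusted p = 0.000649 from limma), 6.26-fold lower on this scale, on 355 to 1032 and 49 to 118 estimated reads. On back-transformed counts with a pseudocount of 1 the log2 fold change was -2.87 (adjusted p = 0.00069 from limma).

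HS3ST3B1, an isoform that acts on other heparan sequences and does not make the antithrombin site, went the other way. It was at 9.24, 8.88, 8.58, 7.40 and 8.38 without IL-1β and at 10.80, 10.56, 10.10, 9.45 and 10.75 with IL-1β. The groups did not overlap, and donor 4 was lowest in both. Across donors, the log2 fold change was 1.84 (standard error 0.15, 95% confidence interval 1.50 to 2.17, adjusted p = 0.000308 from limma), 3.57-fold higher. The log2 difference between HS3ST3B1 and HS3ST1 moved by 5.02, 3.69, 3.62, 5.39 and 4.70 in donors 1 to 5, a mean of 4.48 ± 0.80 (SD, n = 5), given without a test as the pair was chosen after its values were known. HS3ST3A1, whose catalytic domain is nearly the same as that of HS3ST3B1 so that reads can be shared between them, reached only 2 estimated reads without IL-1β and 5 with it. It passed the filter on low values through 1 library without and 4 with IL-1β, and its log2 fold change of 0.47 (95% confidence interval 0.00 to 0.93) had an adjusted p of 0.135 from limma. On back-transformed counts with a pseudocount of 1 the log2 fold change was 1.22 (adjusted p = 0.15 from limma), so its size depends on the scale.

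HS2ST1, the only enzyme that sulfates position 2 of iduronic acid in heparan, was at 10.57, 10.10, 10.32, 10.08 and 10.23 in donors 1 to 5 without IL-1β. With IL-1β it was at 11.10, 11.06, 11.11, 10.80 and 11.31. No library overlapped, and the rise lay between 0.53 and 1.08 in every donor. The log2 fold change was 0.82 (standard error 0.10, adjusted p = 0.0018 from limma), 1.76-fold higher. GLCE, the epimerase that makes the iduronic acid it acts on, had a log2 fold change of -0.12 (95% confidence interval -0.39 to 0.14).

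Of the polymerase pair, EXT1 rose and EXT2 did not pass. The products of both genes work as a complex. EXT1 was at 12.36, 12.28, 12.20, 12.01 and 12.36 without IL-1β and at 12.97, 13.30, 12.60, 12.98 and 13.43 with IL-1β. The groups did not overlap, with the smallest rise in donor 3. The fitted log2 fold change was 0.81 (standard error 0.12, adjusted p = 0.00336 from limma), 1.76-fold higher, against 0.04 (95% confidence interval -0.16 to 0.25, adjusted p = 0.761 from limma) for EXT2. The log2 difference between EXT1 and EXT2 rose in 5 of 5 donors, by 0.36 to 1.19 with a mean of 0.77 ± 0.32 (SD, n = 5), again without a test since the pair was chosen with its values known. In all 6 pairs of related enzymes were compared in this way. DSE minus DSEL rose in 5 of 5 donors (0.29 to 1.35), SULF1 minus SULF2 in 4 of 5 (-0.25 to 1.07) and CSGALNACT1 minus CSGALNACT2 in 2 of 5 (-1.46 to 0.14), so the last of these had no common direction.

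EXTL2 can add an N-acetylhexosamine to a phosphorylated linker and so stop a chain. It was at 9.14, 9.09, 8.77, 8.55 and 8.74 without IL-1β and at 9.44, 9.81, 9.41, 9.43 and 9.77 with IL-1β, without overlap and with the smallest rise in donor 1. Its log2 fold change was 0.71 (standard error 0.13, adjusted p = 0.0072 from limma), 1.64-fold higher. EXTL3, which adds the first N-acetylglucosamine and commits the linker to heparan, was at 10.96, 10.93, 11.22, 11.16 and 10.76 without IL-1β and at 10.64, 10.74, 10.74, 10.77 and 10.62 with it. It fell in 5 of 5 donors, to a narrow range that just met the lowest library without IL-1β. Its log2 fold change was only -0.30 (standard error 0.08, adjusted p = 0.0374 from limma), and leaving out any single donor (adjusted p = 0.0598 to 0.114) or the donor block (0.0594) took it past 0.05. EXTL1 had at most 14 estimated reads per library and a log2 fold change of 0.18 (95% confidence interval -0.49 to 0.85).

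N-sulfation opens the modification of heparan, and none of the 3 tested N-deacetylase and N-sulfotransferase genes passed. NDST1 had a log2 fold change of 0.08 (95% confidence interval -0.17 to 0.33), NDST2 of -0.23 (-0.53 to 0.07) and NDST3, on 10 to 35 estimated reads, of -0.32 (-0.80 to 0.16). For the 6-O-sulfotransferase HS6ST1 it was 0.08 (-0.37 to 0.52), with donors 2 and 5 lower and donors 1, 3 and 4 higher. HS6ST2 and HS6ST3 never exceeded 5 estimated reads, and neither passed at that depth. HS6ST3 passed the filter through 1 library without and 4 with IL-1β, and its log2 fold change of 0.49 (-0.06 to 1.04) had an adjusted p of 0.177 from limma. Of 15 alternative fits only 1 passed, that without donor 4, the donor in which HS6ST3 was lower (0.0403 from limma). On back-transformed counts the log2 fold change was 1.29 (adjusted p = 0.185 from limma).

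The sulfatases SULF1 and SULF2 act outside the cell and remove 6-O-sulfates from finished heparan chains. SULF2 was at 11.99, 12.19, 12.47, 11.31 and 11.56 in donors 1 to 5 without IL-1β and at 11.14, 11.73, 11.79, 11.08 and 11.56 with IL-1β. It was lower in donors 1 to 4 and the same to 2 decimals in donor 5, and the groups overlapped. The log2 fold change of -0.44 (standard error 0.13) had an adjusted p of 0.0453 from limma with the donor block, 0.0853 with the block as a random effect and 0.216 without it, and leaving out donor 1, 2, 3 or 4 took it past 0.05 (0.0503 to 0.147). SULF1 had a log2 fold change of 0.00 (95% confidence interval -0.40 to 0.41), made up of changes between -0.51 and 0.61 in single donors.

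Of the 4 supply genes 2 passed narrowly (22.2% of all tested genes passed), or 1 without the donor block (15.5%). UGDH makes UDP-glucuronic acid, the sugar donor for all these chains and for hyaluronan. It was at 12.08, 11.64, 11.92, 12.15 and 11.73 without IL-1β and at 12.56, 12.79, 12.03, 12.32 and 12.98 with IL-1β. The groups overlapped, and donors 2 and 5 rose by 1.15 and 1.25 against 0.11 to 0.48 in the others. Across donors, the log2 fold change was 0.63 (standard error 0.19, adjusted p = 0.047 from limma), and without donor 1, 2 or 5 the adjusted p was 0.109, 0.147 and 0.128 from limma.

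PAPSS1, a synthase of the sulfate donor PAPS, fell by 0.30 on the log2 scale (standard error 0.09, adjusted p = 0.0466 from limma) and was lower in 5 of 5 donors. It was at 12.59, 12.57, 12.20, 12.35 and 12.78 without IL-1β and at 12.34, 12.36, 12.09, 11.86 and 12.33 with it, in overlapping groups. PAPSS1 had an adjusted p of 0.0553 from limma with the donor block as a random effect and 0.161 without it, and passed without donor 3 (0.0458) but not without donor 1, 2, 4 or 5 (0.0953 to 0.147). PAPSS2, the other synthase, had a log2 fold change of -0.23 (95% confidence interval -0.60 to 0.15). SLC26A2, which takes up sulfate, was lower in 5 of 5 donors with a log2 fold change of -0.34 (-0.58 to -0.09, adjusted p = 0.0588 from limma). It passed in 1 of 16 alternative fits, with the donor block as a random effect (0.0239), and in none of the other 15 (adjusted p up to 0.143 from limma).

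**Figure D3:**
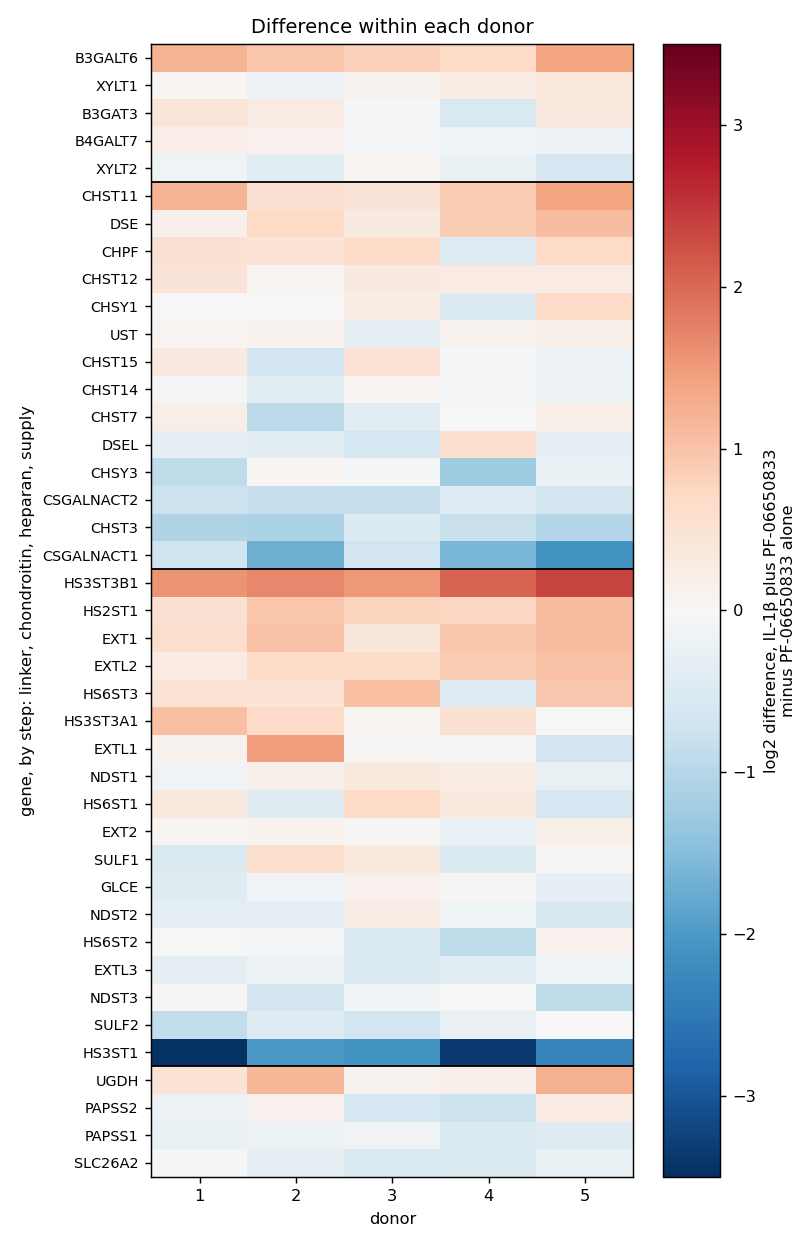
Log2 difference between the 2 libraries of each donor (columns, IL-1β plus PF-06650833 minus PF-06650833 alone) for the 41 tested enzyme genes (rows), with black lines between the steps; red is higher and blue lower with IL-1β. Rows such as HS3ST3B1, HS2ST1 and HS3ST1 have 1 colour across all donors, while rows such as SULF1, CHST15 and HS6ST1 mix both.

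The size of the changes was compared by donor. The median absolute difference over the 41 genes was 0.35, 0.46, 0.36, 0.46 and 0.44 in donors 1 to 5, beside 0.34, 0.38, 0.25, 0.33 and 0.41 over all tested genes. Donor 5 had the most enzyme genes up by at least 1 log2 unit, 8, against 1 in donor 4. Donor 4 was also the only donor in which more enzyme genes were lower (24) than higher (17). The median difference of the enzyme genes in donor 4 was only -0.06, beside -0.0 over all tested genes. Such counts were not made over all tested genes, so they describe these donors and are not read as a trait of the enzymes. In all, 16 of 41 had the same sign in each donor (32.7% of all tested genes did), and 11 had groups that did not overlap (12.7% of all tested genes did).

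The variance of each gene over the 10 libraries was split into a share between donors and a share between treatments. The split uses the same values as the test, so it describes the genes and is no further evidence for those that passed. Of the 41 genes, 26 had the larger share between donors and 15 between treatments. The 5 donors have more degrees of freedom than the 2 treatments. A larger donor share therefore arises in part without any donor effect, and the count does not measure one. The same split over all tested genes was not made. At one end HS3ST1 had 92.6% of its variance between treatments and 2.2% between donors, followed by HS2ST1 with 85.3% and 10.0%. At the other end NDST1 had 82.3% between donors and 2.1% between treatments, XYLT1 82.0% and 5.1%, and SULF1 81.6% and 0.0%. CSGALNACT1 (47.5% between donors), PAPSS1 (54.6%) and SULF2 (59.8%) were the 3 genes that passed although the donors took the larger share, and none of the 3 passed without the donor block.

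**Figure D4:**
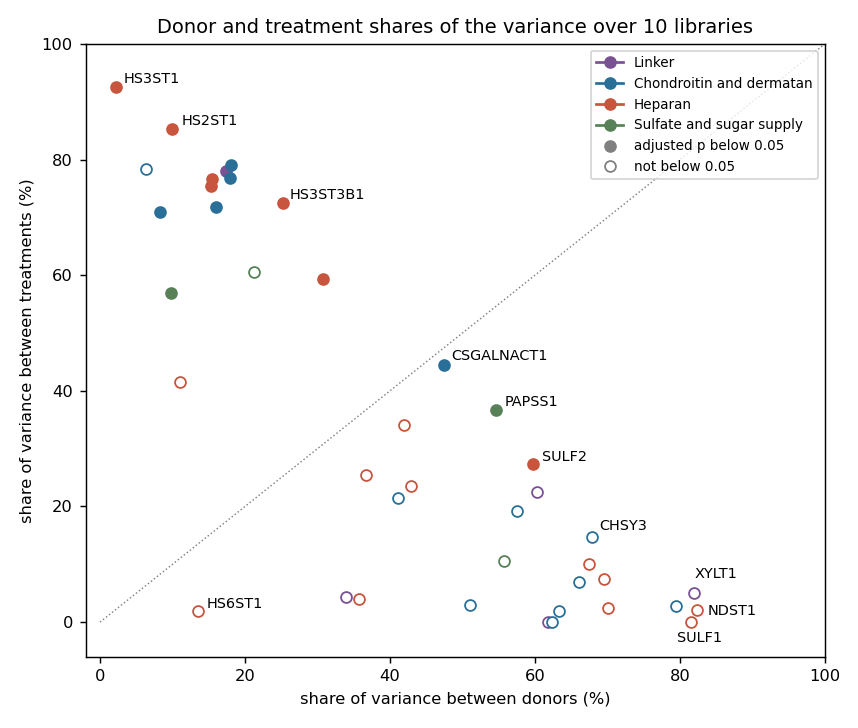
Share of the variance over 10 libraries between treatments (vertical axis, %) against the share between donors (horizontal axis, %) for the 41 tested enzyme genes, coloured by step and filled at an adjusted p below 0.05; the dotted line marks equal shares. HS3ST1 (92.6% between treatments) and HS2ST1 (85.3%) stand at the upper left, and NDST1, XYLT1 and SULF1, each over 80% between donors, at the lower right.

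Other genes of the pathway were read from 4 lists. Of 30 tested core proteins that carry these chains, 14 had an adjusted p below 0.05 (46.7%, against 22.2% of all tested genes), 3 higher and 11 lower. With the minimum fold change 10 of them passed (33.3%, against 8.26%), 2 higher and 8 lower. The median log2 fold change of the 30 core proteins was -0.39, against 0.01 for the enzymes and -0.01 for all tested genes. Aggrecan (ACAN), the large chondroitin sulfate proteoglycan, was at 12.75 ± 0.63 (SD, n = 5) and 6.46 ± 1.22 (SD, n = 5), a log2 fold change of -6.29 (adjusted p = 0.000134 from limma). CSPG4, a membrane chondroitin sulfate proteoglycan, had a log2 fold change of -1.84 (adjusted p = 0.000423) and SDC3, a cell-surface heparan sulfate proteoglycan, of -1.87 (adjusted p = 0.00183), both from limma and lower in 5 of 5 donors. SRGN, the core protein of intracellular granules, rose from 6.23 ± 0.18 (SD, n = 5) to 9.75 ± 1.90 (SD, n = 5), with an adjusted p of 0.00635 from limma. Without the donor block the 2 counts of core proteins were 10 and 8, where 15.5% and 6.68% of all tested genes passed.

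A further list held 13 tested genes, mostly enzymes of sulfated chains, with TMEM165 and GORAB as other Golgi proteins. Of these 3 passed (23.1%, against 22.2% of all tested genes), or 1 without the donor block. With the minimum fold change 1 passed (7.69%, against 8.26%). These shares were near the background. The gene past both thresholds was CHST2, which sulfates N-acetylglucosamine, with a log2 fold change of 1.55 (adjusted p = 0.000884 from limma, higher in 5 of 5 donors). Among 23 tested genes of sugar and sulfate supply 6 passed (26.1%, near the background of 22.2%), 5 higher and 1 lower, and 1 with the minimum fold change (4.35%, against 8.26%), the phosphoglucomutase PGM1 (log2 fold change 1.22, adjusted p = 0.00201 from limma). Of 20 tested genes of lysosomal and extracellular breakdown 4 passed (a share just below the 22.2% of all tested genes), all lower, or 2 without the donor block, and 1 with the minimum fold change (5.0%, against 8.26%), the β-galactosidase GLB1 (log2 fold change -1.03, adjusted p = 0.00125 from limma). The median log2 fold changes of these 3 lists were -0.13, 0.10 and -0.14.

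**Figure D5:**
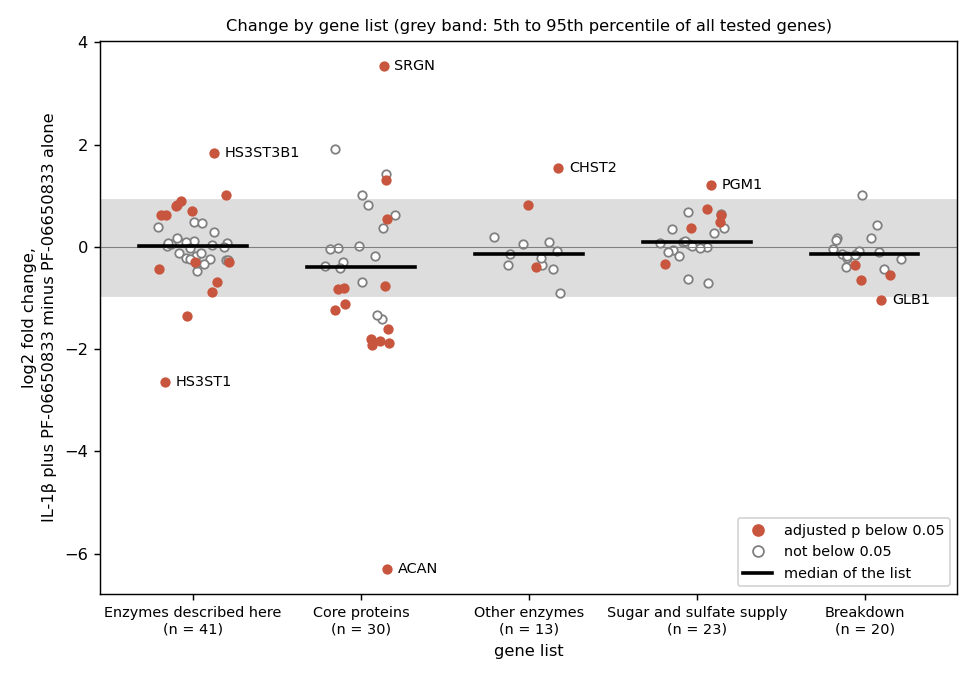
Log2 fold change (vertical axis, IL-1β plus PF-06650833 minus PF-06650833 alone) of each tested gene in 5 lists, filled at an adjusted p below 0.05, with the median of each list as a bar and the 5th to 95th percentile of all tested genes (-0.95 to 0.92) in grey. The enzymes centre on 0.01, and the core proteins reach from -6.29 (ACAN) to 3.53 (SRGN) around a median of -0.39.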

How the data were processed

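RNA of equine tenocytes from 5 donors was sequenced in 2 treatment groups. Salmon (version 1.8, with GC bias correction) was run by the authors against the EquCab3.0 transcriptome. The authors then used tximport and DESeq2 (version 1.36) and deposited normalized log2 values in 10 columns, all used here. The transformation is not named in the sources used here; it was recognised as variance-stabilizing from the values, whose lowest value of 3.433 all libraries share. It shrinks differences of weakly expressed genes. Normalized counts were recovered by inverting it, and read numbers from the steps between low values (70.0% to 86.0% of low values within 0.15 of a whole read, against 30% if evenly spread). Such reads are approximate.

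A gene was tested when 5 or more of its 10 values exceeded that of 0 reads. The model was limma's (version 3.58.1, in R 4.3.3), using a mean-variance trend and the donor as a block, since each line gave a library to both groups. Same-donor libraries deviated together from their group means (correlations 0.367 to 0.506 over 5 pairs, against -0.266 to 0.087 over 20 pairs of different donors). The study's methods name no donor term, and the fit without the replicate block is given where it changes a result. All adjusted p-values are from limma with Benjamini-Hochberg adjustment over all tested genes. The steps were tested on simulated data. No pair of libraries was identical.

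The genes, lists and tests were chosen with earlier results of these data known. All 43 genes are accounted for, with values in every library for those at an adjusted p below 0.05; of each other list the genes past both thresholds with the smallest adjusted p are named, at most 4. Gene length was not used, so levels are not compared between genes. Sequences and positions were not analysed here. Replicates are separate donors.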

Additional observations from a re-analysis of the deposited data

Results flagged for a closer look

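In 3 of 82 groups of 5 libraries, over the 41 tested enzyme genes, 1 library lay far from the other 4, where chance gives about 1 in 20 groups, or 4.1. For B3GALT6 it was donor 4 with IL-1β, at 8.82 against 9.44 to 9.63 in the other donors. Its log2 fold change was 1.09 without donor 4. HS6ST3 was at 3.89 in donor 4 without IL-1β, and HS3ST3A1 at 4.17 in donor 3 without IL-1β, where the other 4 donors were at the value of 0 reads (3.43). Both rest on at most 2 estimated reads.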

How the results depend on the processing

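The direction of all 15 enzyme genes at an adjusted p below 0.05 held under each of the 16 alternative fits. The call held under all of them for 9 (B3GALT6, CSGALNACT2, CHST3, CHST11, EXT1, EXTL2, HS2ST1, HS3ST1 and HS3ST3B1), and 6 lost it under at least 1. The cause of these changes was not tested. When no minimum fold change was set, all genes gave 3996 calls (1969 higher, 2027 lower) and 15 enzymes (8 higher, 7 lower). Without the replicate block 1 enzyme was lower past both thresholds, in place of 2, and 3 were lower at an adjusted p below 0.05, in place of 7. That number was 4 with centring on the median, 4 without the mean-variance trend and 4 at an adjusted p below 0.01. Leaving out a donor with both of its libraries gave 1 to 3 enzymes higher past both thresholds and 4 to 5 lower at an adjusted p below 0.05. Fewer samples also lower the power.

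Among the other 26 genes, 5 passed under at least 1 alternative, CHST12 in 7 of 16, and 7 changed sign around 0. B4GALT7 was at -0.01 with quantile normalization and at -0.05 and -0.03 without donors 1 and 2 (-0.05 to 0.06 over the 5 donors left out). CHST15 was at 0.01 with centring and at 0.15 and 0.03 without donors 2 and 5 (-0.15 to 0.15). SULF1 was at -0.03 with quantile normalization, at -0.01 with array weights, and at -0.15, -0.08 and -0.01 without donors 2, 3 and 5 (-0.15 to 0.13). CHSY1 was at -0.05 without donor 5 (-0.05 to 0.24), CHST7 at 0.02 (-0.27 to 0.02) and EXTL1 at -0.14 (-0.14 to 0.39) without donor 2, and HS6ST1 at -0.08 without donor 3 (-0.08 to 0.25). Depth limits CHST7, EXTL1, NDST3, HS6ST2, HS6ST3 and HS3ST3A1, none of which exceeded 35 estimated reads. On back-transformed counts with a pseudocount of 1 their log2 fold changes were -0.38, 0.50, -0.53, -0.66, 1.29 and 1.22, and none passed.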

Other observations

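Of the genes that supply sugars and sulfate, 26.1% had an adjusted p below 0.05, near the 22.2% of all tested genes, so the values that follow describe single genes and not the list. They were chosen after their values were seen. UGP2, which makes UDP-glucose, the precursor that UGDH oxidizes, had a log2 fold change of 0.62 (adjusted p = 0.00507 from limma). SLC35B4, a Golgi transporter of UDP-sugars, had one of 0.75 (adjusted p = 0.00143) and SLC35B2, which carries the sulfate donor PAPS into the Golgi, one of 0.38 (adjusted p = 0.0218), each from limma and higher in 5 of 5 donors. UXS1, which turns UDP-glucuronic acid into UDP-xylose for the first sugar of the linker, was lower in 5 of 5 donors, with a log2 fold change of -0.33 (adjusted p = 0.0484 from limma, 0.12 without the donor block). In the breakdown list the other genes at an adjusted p below 0.05 were HYAL3 (-0.54), ARSK (-0.64) and SUMF1 (-0.35), all lower in 5 of 5 donors. Without the donor block HYAL3 (adjusted p = 0.0599 from limma) and ARSK (0.152) did not pass.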
